A study of Haemulon flavolineatum and Haemulon macrostomum and Haemulon carbonarium with 36 samples.

Results

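Vitellogenins are the yolk precursor proteins that the liver of egg-laying vertebrates makes and releases into the blood, from which growing oocytes take them up. This account covers the 7 isogroups that the study's annotation names vitellogenin, out of 58532 isogroups counted in the livers of 3 grunt species (genus *Haemulon*). They were taken by name from the list of annotated genes that the study called as differing between species. Of the 7, isogroup7355 is named type Aa, isogroup15992 type Ab, isogroup31593 and isogroup32209 type B, isogroup13507 type C, and isogroup57324 and isogroup16683 vitellogenin without a type. An isogroup is a cluster of assembled transcripts, so 2 isogroups with the same name can be pieces or copies of 1 gene.

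The fish were wild and untreated, and each gave 1 liver library: 17 *H. flavolineatum* (fish 2 to 18), 8 *H. carbonarium* (fish 1 to 8) and 11 *H. macrostomum* (fish 1 to 11). The labels give species and tissue only, and sex, age and maturity are not among them. In TagSeq, 1 tag close to the 3′ end is read per messenger RNA, and counts do not depend on how long the transcript is. The paper reports that its contigs were small and mostly covered only part of a reference sequence. An isogroup that lacks the 3′ end of its transcript can collect few tags. Differences in counts between isogroups or types may therefore not be differences in messenger RNA, and this was not tested. Reads of all species were mapped to the liver transcriptome of *H. macrostomum*, and a read could match up to 5 places, so that isogroups of 1 family can share reads and levels in the other 2 species may be affected by sequence difference.

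In teleost fish, estrogen from the ovary switches on vitellogenin genes in liver cells, and the level of their messenger RNA follows the growth of the oocytes. Types Aa and Ab are large, complete forms that carry lipid and a phosphate-rich domain. Type C is a shorter form that lacks that domain. The types used below are names from the annotation, and naming of vitellogenins is not uniform. Whether isogroups named B and Ab stand for separate forms was not tested. In marine fish with floating eggs, the products of the types are broken down to different degrees during egg maturation, and the proportion of the types differs among species. Choriogenins are egg envelope proteins that the liver of many teleosts also makes under estrogen.

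Library totals were 578011 to 2594002 counts in *H. flavolineatum* (median 1507930), with medians of 1523535.5 in *H. carbonarium* (722995 to 1930321) and 1690551 in *H. macrostomum* (1149810 to 3252882). Levels are in CPM, which are counts scaled to a common library total after TMM scaling. The summed level of 5 liver markers, which include fibrinogen chains and apolipoprotein A-I, was 5031 to 29423 CPM in *H. flavolineatum*, 23648 to 41265 in *H. carbonarium* and 20987 to 42529 in *H. macrostomum*. Nearly all of this sum was apolipoprotein A-I, with 467068, 361555 and 609397 counts in the same species. Fibrinogen gamma chain had 205, 113 and 396 counts, and the other liver markers fewer. The summed level of 8 digestive enzymes of the exocrine pancreas was 1849 to 15485 CPM in *H. flavolineatum*, 8765 to 43967 in *H. carbonarium* and 398 to 7856 in *H. macrostomum*. Every pancreatic marker had counts in each species, and the part of such tissue in the values below was not tested. In a whole liver sample, fewer cells of a type and less RNA per cell cannot be told apart.

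A cut at a summed vitellogenin level of 10000 CPM set 6 *H. flavolineatum* apart from the other 11. The sets cannot overlap in that sum, and no fish lay between 1734 and 34207 CPM. In 6 fish the 7 isogroups together reached 37167 (fish 3), 49920 (fish 10), 39109 (fish 12), 65779 (fish 13), 44873 (fish 14) and 34207 CPM (fish 18). These fish lay within a 1.92-fold range, and vitellogenin made up 3.06% to 5.14% of all counts in their livers. In the other 11 *H. flavolineatum* the sum ran from 11.5 to 1734 CPM, with a median of 30.5. Fish 11, at 1734 CPM, and fish 2, at 453 CPM, stood between the 6 fish and the other 9, of which the highest was at 81.1 CPM. In *H. carbonarium* the sum ran from 11.7 to 72.4 CPM (median 24.3), and in *H. macrostomum* from 9.40 to 119 CPM (median 12.1). No fish of these 2 species came near the 6 high fish: the highest *H. macrostomum*, fish 4, had 0.284% of their median level, and the highest *H. carbonarium*, fish 2, had 0.172%. The medians of both marker sums were lower in the 6 high fish, and their ranges overlapped. For liver this was in effect the level of apolipoprotein A-I, which gave nearly all of that sum. The summed liver markers ran from 5031 to 21014.5 CPM in the 6 high fish (median 11878.5) and from 13649 to 29423 in the other 11 (median 20094), with 1 of the 5 at 0 in each set. The summed pancreatic markers ran from 2414 to 12617 CPM in the 6 high fish (median 5426) and from 1849 to 15485 in the other 11 (median 10131), with none of the 8 at 0. The part of either in the divide was not tested. The cut at 10000 CPM that separates the 6 fish was crossed by the same number of fish when CPM were taken from the total counts.

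**Figure D1:**
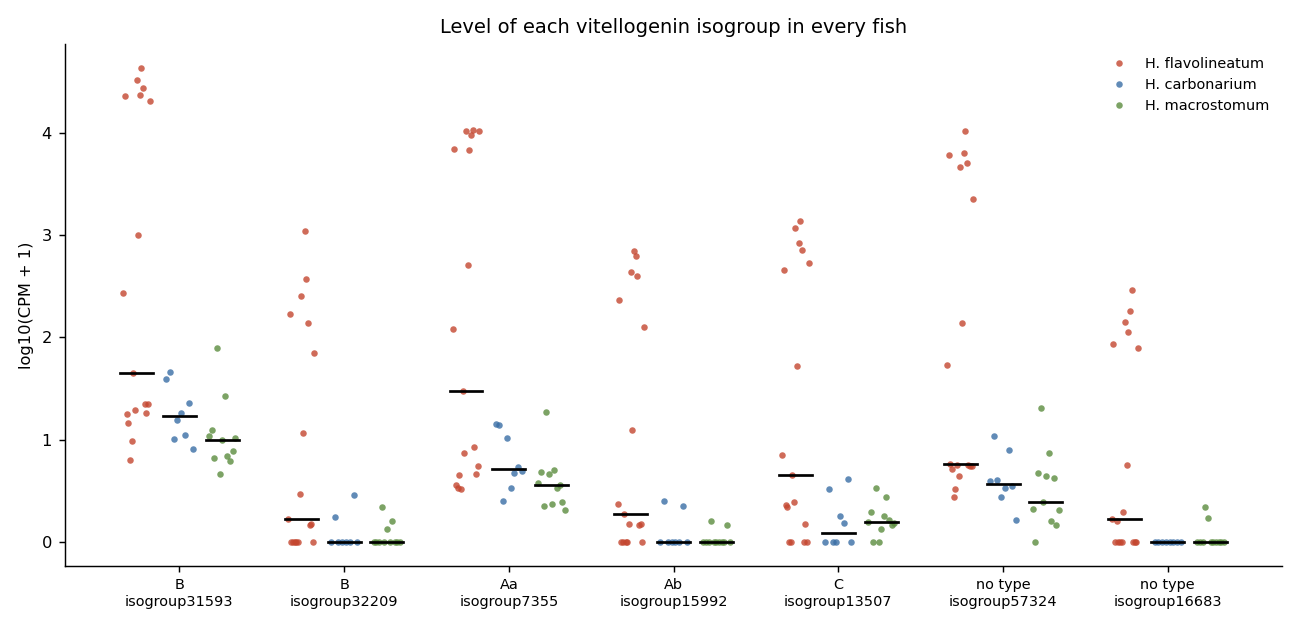
Level of each vitellogenin isogroup in each of the 36 fish, as log10(CPM + 1) on the vertical axis, with 1 point per fish and a black line at the median of each species. In every isogroup 6 *H. flavolineatum* lie far above the rest, and fish 11 lies between. Fish 2 also lies between in isogroup31593, isogroup7355, isogroup57324 and isogroup13507, and among the low fish in the other isogroups. The remaining fish of the 3 species overlap at low levels.

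Type B gave the most vitellogenin counts. Isogroup31593 was at 23113, 32775, 23250, 43352, 27614 and 20681 CPM in fish 3, 10, 12, 13, 14 and 18. It was the highest of the 7 isogroups in 6 of these 6 fish, in 11 of 11 other *H. flavolineatum*, in 8 of 8 *H. carbonarium* and in 10 of 11 *H. macrostomum*. In the other *H. flavolineatum* it ran from 5.31 to 1005 CPM with a median of 18.7. It ran from 7.18 to 45.0 CPM in *H. carbonarium* (median 15.97), and from 3.62 to 77.1 CPM in *H. macrostomum* (median 8.89). It had at least 5 counts in every fish of the series, so that vitellogenin B messenger RNA, or reads assigned to it, was detected in all 36 livers.

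The second type B isogroup was far lower and far more variable. Isogroup32209 was at 168, 252, 1106, 368, 136 and 70.0 CPM in fish 3, 10, 12, 13, 14 and 18, a 15.8-fold range, against 2.10-fold for isogroup31593. Fish 12 stood above the other 5. Outside these 6 fish it had 21 counts in 11 *H. flavolineatum*, 4 counts in *H. carbonarium* and 4 in *H. macrostomum*.

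Type Aa had the second most counts of the named types. Isogroup7355 was at 6980, 10461, 6805, 9446, 10608 and 10449 CPM in fish 3, 10, 12, 13, 14 and 18. Its 1.56-fold range was the narrowest of the 7 isogroups. Its level was 2.32 to 512 CPM in the other *H. flavolineatum* (median 4.52), 1.54 to 13.3 in *H. carbonarium* (median 4.16) and 1.05 to 17.5 in *H. macrostomum* (median 2.59), with counts in every fish. Type Ab was much lower: isogroup15992 was at 230, 439, 698, 623, 394 and 126 CPM in the same 6 fish. It had 21 counts in the other 11 *H. flavolineatum*, where 5 fish had none, 4 in *H. carbonarium*, where 6 fish had none, and 2 in *H. macrostomum*, where 9 had none.

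Type C, the short form, lay between them. Isogroup13507 was at 460, 1166, 833, 1381, 708 and 529 CPM in fish 3, 10, 12, 13, 14 and 18, above Ab in each of the 6. Its level reached 51.4 CPM in the other *H. flavolineatum* (median 1.19), 3.15 in *H. carbonarium* (median 0.264) and 2.41 in *H. macrostomum* (median 0.553), with a lowest value of 0 in each. It had 10 counts in all of *H. carbonarium* and 14 in *H. macrostomum*.

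The 2 isogroups without a type differed widely in level. Isogroup57324 was at 6129, 4687, 6306, 10428, 5123 and 2273 CPM in fish 3, 10, 12, 13, 14 and 18, below isogroup7355 in 5 of the 6 and above it in fish 13. It had counts in every *H. flavolineatum* and *H. carbonarium* and in 10 of 11 *H. macrostomum*. Isogroup16683 was at 85.2, 140, 111, 182, 291 and 78.3 CPM in the same 6 fish, with fish 14 highest. It had 10 counts in the other *H. flavolineatum*, 0 in *H. carbonarium* and 3 in *H. macrostomum*. Pooled over fish and per total counts, isogroup16683 in *H. flavolineatum* stood 168-fold above a floor of 3 counts over the 8 *H. carbonarium*. The lower end of the exact interval for this ratio was 136-fold, which covers counting error only. The 6 high fish held 1071 of the 1081 *H. flavolineatum* counts, so the ratio does not describe the other fish of that species.

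The statistical contrasts describe this difference and do not test it afresh, because the 7 isogroups come from a list of differing genes and each is on it for *H. flavolineatum* against *H. macrostomum*. Of the 7, 4 passed the filter on low counts (isogroup7355, isogroup31593, isogroup13507 and isogroup57324). The fish in which they are high count toward that filter. Only isogroup31593 also passed it in the fit of *H. carbonarium* and *H. macrostomum* alone, which is given below. All 4 were called higher in *H. flavolineatum* than in *H. macrostomum* at an adjusted p under 0.01 in edgeR's quasi-likelihood test with Benjamini-Hochberg adjustment, where 26.0% of 8598 tested isogroups were called in either direction, 11.6% as higher and 14.4% as lower. Their log2 fold changes were 9.96 (SE 1.63) for isogroup7355, 9.56 (SE 1.61) for isogroup31593, 8.72 (SE 1.51) for isogroup13507 and 9.31 (SE 1.60) for isogroup57324. Against *H. carbonarium*, with the same *H. flavolineatum*, they were 9.15, 9.06, 8.50 and 9.20, and all 4 were called, beside 14.4% of all isogroups in either direction, 6.55% as higher and 7.85% as lower. These means over 17 fish rest on 6: the other 11 overlapped with both other species in every isogroup. The paper reports raised vitellogenin in part of its *H. flavolineatum* and repeated its contrasts without those fish. The contrasts given here keep all 17.

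The comparison of the low species was not the one through which the isogroups were chosen, although it shares *H. macrostomum* with it. Between *H. carbonarium* and *H. macrostomum* 0 of the 4 tested isogroups were called by edgeR's quasi-likelihood test, and 0 had an unadjusted p under 0.05, where 13.5% of 8598 isogroups were called, 6.08% as higher and 7.41% as lower in *H. carbonarium*. DESeq2, run without a count filter, called 0 of the 7 isogroups, where it called 2263 of all 58532. The log2 fold changes were 0.81 (SE 1.42) for isogroup7355, 0.50 (SE 1.29) for isogroup31593, 0.22 (SE 1.94) for isogroup13507 and 0.10 (SE 1.47) for isogroup57324. With a spread this wide, set in part by *H. flavolineatum*, a difference of 1 log2 unit was not detectable. In a fit of these 2 species alone, in which 11.6% of 6861 isogroups were called, only isogroup31593 passed the filter, with a log2 fold change of 0.54 (SE 0.53, edgeR adjusted p = 0.520). Pooled over fish, 215 counts of isogroup31593 in *H. carbonarium* stood against 280 in *H. macrostomum*. Relative to the totals this is a ratio of 1.26, with an exact 95% interval of 1.05 to 1.51 that covers counting error only. *H. macrostomum* fish 4 held 128 of those 280 counts, and without it the log2 fold change over all species was 1.20 (edgeR adjusted p = 0.568).

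Within the 6 high fish the vitellogenin counts were mostly B, then Aa. Type B made up 60.7% to 66.5% of the vitellogenin counts (mean 63.3% ± 2.40, SD, n = 6), and Aa 14.4% to 30.5% (20.9% ± 5.66). Isogroups without a type made up 6.87% to 16.7% (12.98% ± 4.12), C 1.24% to 2.34% (1.82% ± 0.427) and Ab 0.367% to 1.79% (0.913% ± 0.479). The share of B moved least from fish to fish relative to its size. Fish 18 had both the highest share of Aa and the lowest share without a type.

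The ratios between types varied among the 6 fish. Each fish has 1 library, and its intervals cover counting error only, since reads are not independent molecules. For every 100 counts of B, Aa had 29.98, 31.7, 27.9, 21.6, 38.2 and 50.4 counts in fish 3, 10, 12, 13, 14 and 18. The exact 95% interval was 49.1 to 51.7 in fish 18 and 21.1 to 22.1 in fish 13, the ends of a 2.33-fold range. Type C was steadier against B, with 1.98, 3.53, 3.42, 3.16, 2.55 and 2.55 counts per 100, a 1.79-fold range. Ab had 0.989, 1.33, 2.87, 1.42, 1.42 and 0.606 counts per 100 of B, a 4.73-fold range with fish 12 highest and fish 18 lowest. Between the A types the range was wider still, from 1.203 counts of Ab per 100 of Aa in fish 18 to 10.3 in fish 12.

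**Figure D2:**
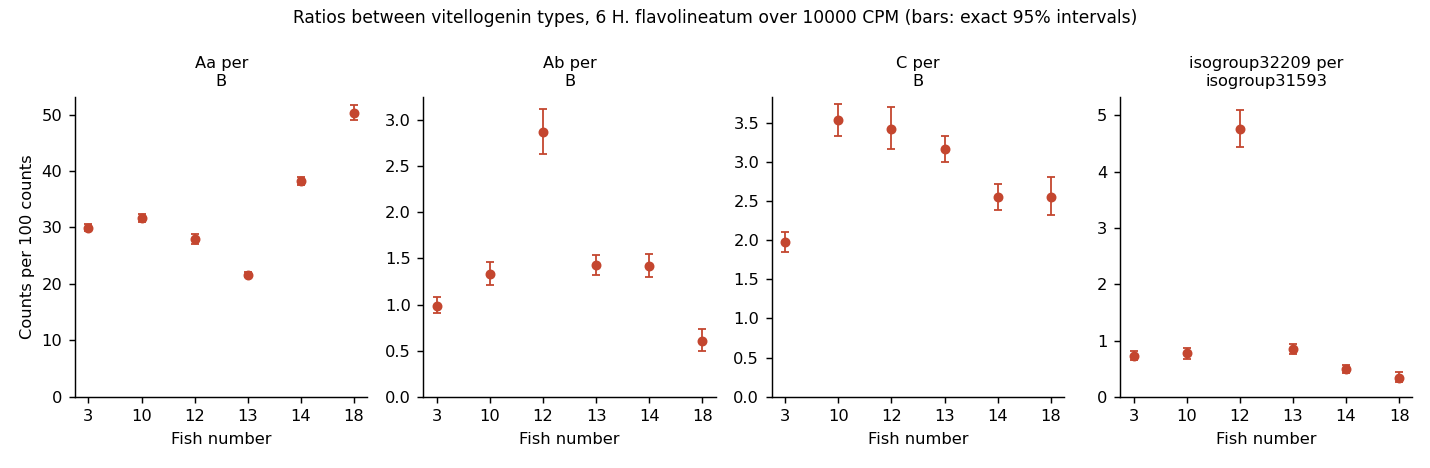
Ratios between vitellogenin types in the 6 *H. flavolineatum* over 10000 CPM, as counts per 100 counts on vertical axes that start at 0, with exact 95% intervals for counting error. Aa per B is highest in fish 18 (50.4), and fish 12 is highest in both Ab per B (2.87) and isogroup32209 per isogroup31593 (4.76).

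Isogroups that share a name also kept no fixed ratio. Isogroup32209 had 0.729, 0.770, 4.76, 0.848, 0.494 and 0.338 counts per 100 of isogroup31593 in fish 3, 10, 12, 13, 14 and 18, both being named type B. Fish 12 was 14.1-fold above fish 18. Of the pair without a type, isogroup16683 had from 1.39 counts (fish 3) to 5.68 counts (fish 14) per 100 of isogroup57324. Isogroup57324 itself had from 10.99 (fish 18) to 27.1 counts (fish 12) per 100 of isogroup31593.

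In the fish with little vitellogenin the make-up could be measured only coarsely, since sums were as low as 13 counts. The mean share of B was 61.2% ± 6.62 in the 11 other *H. flavolineatum* (SD), and that of Aa 20.9% ± 8.69. The species were compared over all their fish, the 6 high fish included. The mean share of B was then 62.0% ± 5.50 in *H. flavolineatum* (SD, n = 17), 63.7% ± 8.73 in *H. carbonarium* (n = 8) and 61.9% ± 12.2 in *H. macrostomum* (n = 11). That of Aa was 20.9% ± 7.57, 20.4% ± 10.01 and 17.7% ± 8.63 in the same species. In 15 two-sided permutation tests over fish, of 5 shares in 3 pairs of species (exact where a species has 8 fish), none passed. The lowest unadjusted p was 0.0805, for type C, which made up 2.14% ± 1.77 in *H. flavolineatum* and 4.27% ± 4.33 in *H. macrostomum*, and the lowest p adjusted over the 15 permutation tests was 0.964. With only fish of at least 20 vitellogenin counts, the difference in the share of B between *H. flavolineatum* and *H. macrostomum* was -6.52 percentage points, against 0.0475 over all fish, with an adjusted permutation p of 0.0434, which does not pass 0.01.

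In counts pooled over fish, B came first in each species, and the order of Aa and the isogroups without a type was not the same in all. Of 346 vitellogenin counts in *H. carbonarium*, 63.3% were B (exact 95% interval 58.0% to 68.4%) and 19.7% Aa (15.6% to 24.2%). Of 439 in *H. macrostomum*, 64.7% were B (60.0% to 69.2%) and 15.3% Aa (12.03% to 18.97%), against 16.4% without a type (13.1% to 20.2%). The last 2 rest on 67 and 72 counts with overlapping intervals, so counting error alone could reverse their order. Isogroup7355 was above isogroup57324 in 5 of 6 high *H. flavolineatum*, 6 of 11 others, 5 of 8 *H. carbonarium* and 5 of 11 *H. macrostomum*. Their counts were equal in 0, 2, 1 and 1 fish of these sets. Of 3362 counts in the 11 other *H. flavolineatum*, 59.3% were B (57.6% to 60.9%) and 27.7% Aa (26.2% to 29.2%), but 2260 of these counts came from fish 11. Isogroup16683 had 0 of the 346 counts in *H. carbonarium*, which allows a share of up to 0.867% by a floor of 3 counts and up to 1.06% by the exact 95% interval. Floors and intervals cover counting error only. The exact interval of a fish's B share reached the range of the 6 high fish in 10 of 11 other *H. flavolineatum*, 8 of 8 *H. carbonarium* and 11 of 11 *H. macrostomum*. With few counts these intervals are wide, as 13.9% to 68.4% in *H. macrostomum* fish 5, so reaching the range says little about make-up. *H. flavolineatum* fish 11, the low fish with the most counts, did not reach it. Its interval was 56.5% to 60.6%, and the range was 60.7% to 66.5%. All libraries were sequenced in a single lane with those of the 6 high fish, and a fish's own transcripts and reads from another library cannot be told apart in these counts.

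**Figure D3:**
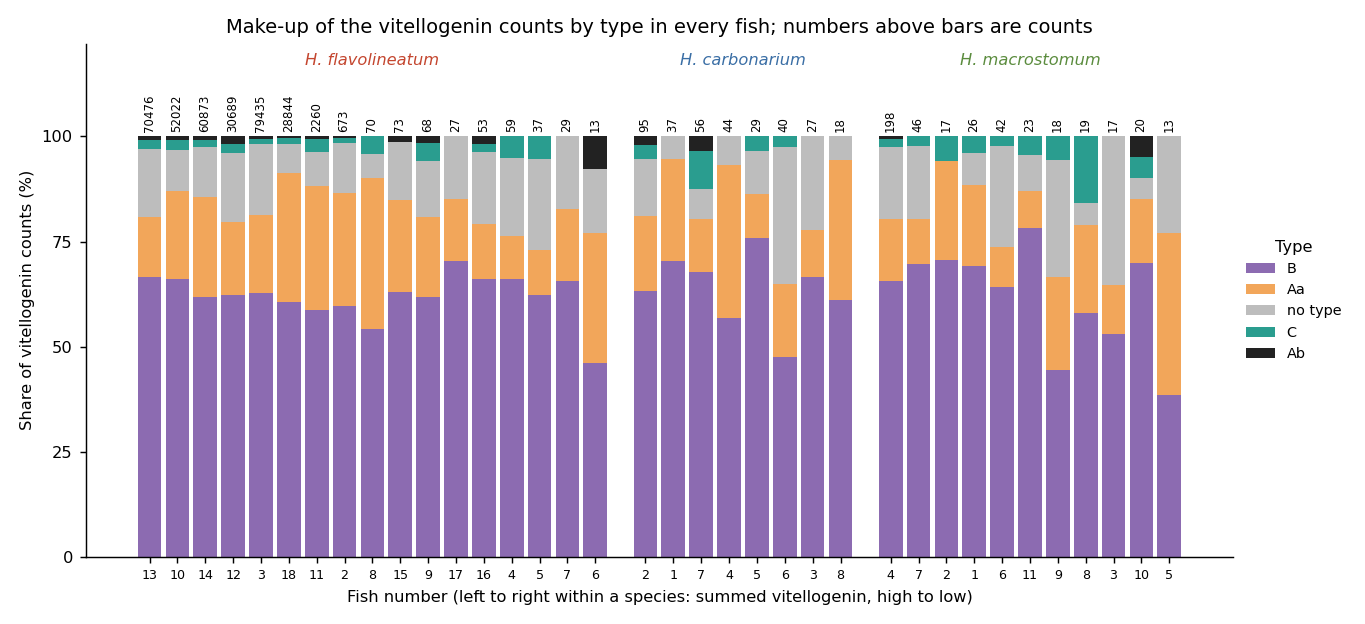
Share of each vitellogenin type in every fish, in percent of the vitellogenin counts, with fish ordered within a species from high to low summed CPM and the number of counts above each bar. Type B is the largest share in nearly all fish, and the bars scatter more where counts are few, as in *H. macrostomum* fish 5, which had 13 counts.

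Covariation was examined as the correlation of log2(CPM + 1) of isogroup31593 with each other isogroup, separately in the 6 high *H. flavolineatum*, the other 11, *H. carbonarium* and *H. macrostomum*, which gave 23 relations. The points of a set share the scaling of their libraries. In the 11 other *H. flavolineatum*, 3 isogroups rose with isogroup31593: isogroup7355 (Pearson r = 0.969, Spearman rho = 0.918, adjusted permutation p = 0.00299 and 0.00598), isogroup57324 (r = 0.979, rho = 0.773, adjusted permutation p = 0.00299 and 0.0899) and isogroup13507 (r = 0.927, rho = 0.651, adjusted permutation p = 0.00429 and 0.200). Fish 11 and fish 2 carried part of this. Without them r was 0.754 for isogroup7355, 0.832 for isogroup57324 and 0.626 for isogroup13507.

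Among the 6 high fish no relation passed the adjustment. The closest partner of isogroup31593 was type C (r = 0.880, rho = 0.886, exact permutation p = 0.0194 and 0.0333, adjusted p = 0.1002 and 0.200), and without fish 13 and 10 r was 0.450. This relation depends on the scaling: r was 0.845 (adjusted p of the exact permutation test 0.0479) in CPM of the total counts, and 0.961 (adjusted p 0.0160 by the same exact test) with TMM factors of the tested isogroups, a scaling tried after the data had been seen. The r with isogroup31593 was 0.691 for isogroup57324, 0.620 for isogroup15992, 0.608 for isogroup16683, 0.341 for isogroup7355 and 0.273 for isogroup32209. Type Aa and type B are the 2 named types with the most counts. A relation between them was neither detected nor excluded in these 6 fish.

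In the low species no relation passed either. Isogroup7355 had r = 0.745 and rho = 0.690 in *H. carbonarium* (exact permutation p = 0.0457 and 0.0694, adjusted p = 0.1002 and 0.200), and r was 0.248 without fish 2 and 1. In *H. macrostomum* r was 0.778 for isogroup7355, 0.687 for isogroup57324 and 0.683 for isogroup13507 (adjusted permutation p = 0.1002 for each). Without fish 4 and 7 these were -0.14, -0.39 and 0.36, so that they rest on those fish.

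**Figure D4:**
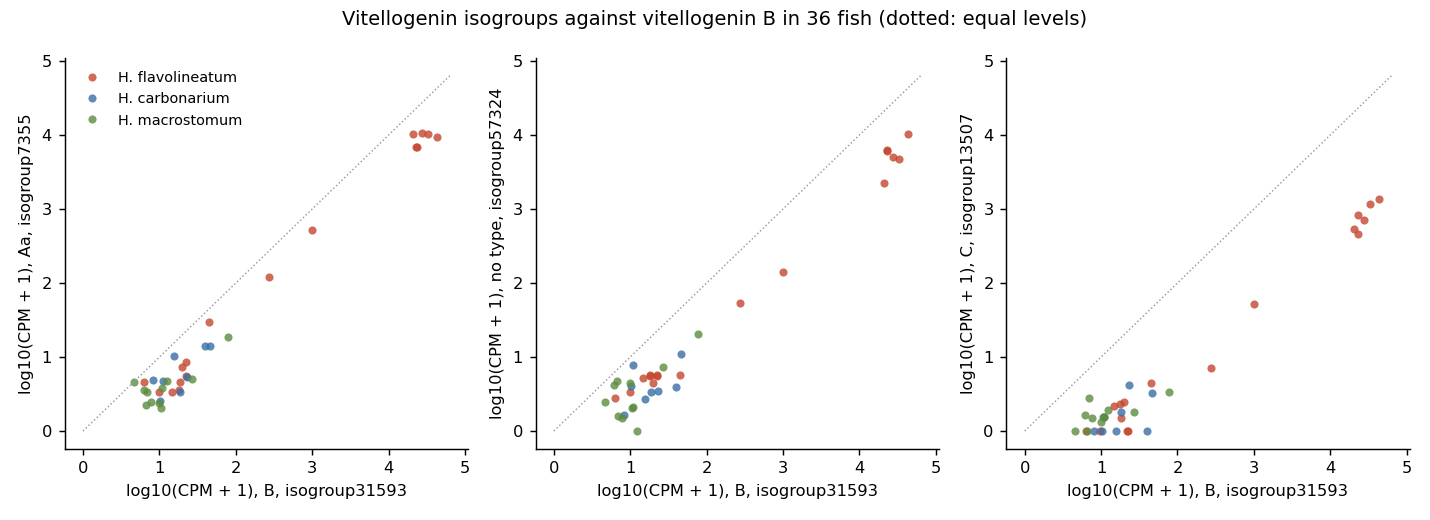
Levels of isogroup7355 (Aa), isogroup57324 (no type) and isogroup13507 (C) against isogroup31593 (B) in 36 fish, both axes as log10(CPM + 1), with a dotted line at equal levels. The 6 high *H. flavolineatum* form a group of their own at the upper right, fish 11 and fish 2 lie on the way to it, and the remaining fish of all species overlap at the lower left.

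Of the 10 named isogroups whose pattern over the 17 *H. flavolineatum* was most like isogroup31593, members aside, 3 were choriogenins. Likeness was Pearson's r of log2(CPM + 1) over the 17 fish, given as a description, and it mostly reflects the gap between the 6 fish and the rest. The 10 were led by choriogenin H (isogroup14, r = 0.996), choriogenin Ha (isogroup3885, r = 0.993), nothepsin (isogroup5747, r = 0.984) and choriogenin L (isogroup6269, r = 0.981). Nothepsin is an aspartic protease known from the liver of female zebrafish. After these came reticulon (isogroup9692, r = 0.924), retinol-binding protein 2 (isogroup33177, r = 0.918), retinol dehydrogenase 16 (isogroup2577, r = 0.909), the aquaporin AQP12 (isogroup2613, r = 0.907), reticulocalbin 3 (isogroup371, r = 0.889) and NADPH-cytochrome P450 reductase (isogroup200, r = 0.881). Only 1347 of the 8598 tested isogroups had a name, and 8 isogroups without one ranked among these.

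Choriogenins outnumbered vitellogenins. The 3 choriogenin isogroups together had 1.93 to 3.96 counts per vitellogenin count in the 6 high fish (median 2.74), 1.77 to 9.41 in the other *H. flavolineatum* (3.15), 2.02 to 14.5 in *H. carbonarium* (3.52) and 2.52 to 7.56 in *H. macrostomum* (3.95). Choriogenin Ha alone was at 55870 to 142620 CPM in the 6 fish, 23.2 to 1729 in the other *H. flavolineatum*, 24.1 to 728 in *H. carbonarium* and 11.5 to 237 in *H. macrostomum*. A further envelope protein, zona pellucida protein Ba (isogroup23169), lay below the filter, with 71.1 to 413 CPM in the 6 fish, with 18 counts in the other *H. flavolineatum*, 0 in *H. carbonarium* and 2 in *H. macrostomum*.

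One envelope protein went the other way. Zona pellucida sperm-binding protein 3 (isogroup2893) averaged 35.4 ± 16.2 CPM in *H. flavolineatum*, 74.9 ± 20.1 in *H. carbonarium* and 102 ± 28.8 in *H. macrostomum* (SD, n = 17, 8 and 11). Its log2 fold change for *H. flavolineatum* was -1.48 against *H. macrostomum* (SE 0.20, edgeR adjusted p = 1.35e-07) and -1.11 against *H. carbonarium* (SE 0.22, edgeR adjusted p = 1.75e-04). Its medians in the 6 high fish, 28.5 CPM, and in the other *H. flavolineatum*, 35.9 CPM, lay close together. Of the 4 tested envelope isogroups, 3 were called higher and 1 lower in *H. flavolineatum* in both contrasts, and 0 between *H. carbonarium* and *H. macrostomum*. Of all tested isogroups, 11.6% were higher and 14.4% lower against *H. macrostomum*, 6.55% and 7.85% against *H. carbonarium*, and 13.5% were called between the other 2 species. For *H. carbonarium* minus *H. macrostomum*, log2 fold changes were 0.33 (SE 1.17) for choriogenin H, 1.81 (SE 1.29) for Ha and 1.97 (SE 1.97) for L. Zona pellucida sperm-binding protein 3 had -0.37 (SE 0.24). The choriogenins' spread is set in part by *H. flavolineatum*, and choriogenin L had only 18 and 6 counts in these 2 species. For the choriogenins, 0 calls therefore do not show equal levels.

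In the contrasts between species, fold changes of vitellogenin's relatives and of the machinery for secreted proteins were far smaller. These contrasts average over all 17 *H. flavolineatum*, and the vitellogenins come from a list of called genes. Whether these lists differ between the 6 high fish and the other 11 was not tested. Apolipoprotein B-100, which belongs to the same family of large lipid transfer proteins, had 3 tested isogroups, and relative to *H. macrostomum* 2 of these were higher in *H. flavolineatum* and 0 lower. Relative to *H. carbonarium* 1 was higher and 1 lower. Over all tested isogroups 11.6% were higher and 14.4% lower in the first contrast, and 6.55% and 7.85% in the second. Isogroup701 averaged 93.4 ± 20.7 CPM in *H. flavolineatum* and 18.5 ± 10.9 in *H. macrostomum* (log2 fold change 2.42, SE 0.26), and isogroup4685 averaged 17.01 ± 7.57 CPM in *H. flavolineatum* and 52.9 ± 23.8 in *H. carbonarium* (log2 fold change -1.61, SE 0.30). Of 7 tested isogroups for entry into and folding in the endoplasmic reticulum, 0 were higher and 2 lower when *H. flavolineatum* was set against *H. macrostomum*, beside 11.6% and 14.4% of all tested isogroups: protein disulfide-isomerase (isogroup4586, log2 fold change -1.44, SE 0.24) and signal recognition particle 14 kDa protein (isogroup1488, -0.80, SE 0.23). Against *H. carbonarium* 0 were higher and 1, isogroup4586, was lower (-1.03, SE 0.26), beside 6.55% and 7.85% of all.

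Of 2 isogroups named for estradiol metabolism, 2 were called lower in *H. carbonarium* than in *H. macrostomum*, where 7.41% of all tested isogroups were lower and 13.5% were called in either direction. Estradiol 17-beta-dehydrogenase 2 (isogroup1868), which inactivates estradiol, averaged 41.7 ± 19.2 CPM in *H. flavolineatum*, 12.4 ± 6.09 in *H. carbonarium* and 55.9 ± 22.4 in *H. macrostomum*. It was higher in *H. flavolineatum* than in *H. carbonarium* (log2 fold change 1.71, SE 0.29, edgeR adjusted p = 1.44e-05), where 6.55% of all were higher, and *H. carbonarium* minus *H. macrostomum* gave -2.08 (SE 0.30, edgeR adjusted p = 1.62e-06). Estradiol 17-beta-dehydrogenase 12 (isogroup778) had -0.93 in that contrast (SE 0.26, edgeR adjusted p = 0.00696). The medians over all tested isogroups were 0.04, 0.05 and 0.00 log2 units for *H. flavolineatum* minus *H. macrostomum*, *H. flavolineatum* minus *H. carbonarium* and *H. carbonarium* minus *H. macrostomum*.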

How the data were processed

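The authors removed low-quality reads and PCR duplicates (FastX Tool Kit), trimmed adaptors, mapped single-end TagSeq reads with Bowtie2 (up to 5 matches a read, version not given in the sources used here) to the *H. macrostomum* liver transcriptome and deposited raw counts per isogroup for 36 fish, 1 library each. Isogroups were kept by filterByExpr (minimum count 10, minimum total count 15) and tested in R 4.3.3 with edgeR 4.0.16 (TMM, quasi-likelihood, species as only term, Benjamini-Hochberg, calls at an adjusted p under 0.01). CPM were counts relative to the library total, scaled by TMM factors computed over all isogroups. After first results were seen, TMM factors of the tested isogroups were also tried, and they are given as an added alternative because they move the correlation of types B and C. Shares and correlations were tested by permutation of fish (scipy 1.17.1, 100000 resamples where not exact). Intervals are exact at 95%. Other alternatives were DESeq2 1.42.0, other scalings, filters, thresholds and samples, and a replicate block. The test was checked on simulated data. Members and lists were chosen with earlier results of these data known. The named isogroups were the 7 members, 5 envelope proteins, the 10 named isogroups most like isogroup31593 and, of each other list, the 2 with the smallest p over the 3 species. Fold changes outside that rule are given only for counts of 5 or fewer. No sequence of these isogroups was at hand.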

Additional observations from a re-analysis of the deposited data

Results flagged for a closer look

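Isogroup32209, the minor type B isogroup, was at 1.89 CPM in *H. carbonarium* fish 7, where the next fish was at 0.762 CPM and the other 6 had none. The gap to the nearest fish was 0.597 of the range, above Dixon's critical value for 8 fish. Chance flags about 1 in 20 groups where values are normally spread, and 8 quantities were examined. That rate need not hold here, where most fish had no counts. The species had 4 counts of this isogroup in all.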

How the results depend on the processing

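Against *H. macrostomum* and against *H. carbonarium*, 4 vitellogenin isogroups were called higher in *H. flavolineatum*, 7 without a count filter in edgeR, 7 with DESeq2 run without one, and 0 with the fish number as a replicate block. Over all isogroups, the calls in these 2 contrasts were 2233 and 1238 of 8598 in the main fit. They were 5526 and 2427 of 58532 without a filter in edgeR, and 4437 and 2345 of 58532 with DESeq2. With the block they were 1639 and 720 of 8598. The fish number does not pair fish: correlations of same-numbered fish ran from -0.155 to 0.30, with 1 over 0.1. High fish 12, 13, 14 and 18 have numbers that no fish of the other species has. The block therefore takes up their values, and these high fish cannot add to either contrast under it. Under the block the log2 fold changes were 3.42 to 4.30 and 2.72 to 3.35. Leaving out each fish in turn kept every tested isogroup called in both contrasts (isogroup13507 passed the filter in 28 of 36), while between *H. carbonarium* and *H. macrostomum* isogroup57324 ran from -0.21 to 0.85 and isogroup13507 from -0.47 to 0.53, none called. With fish of at least 20 vitellogenin counts, share differences turned in *H. flavolineatum* minus *H. macrostomum* for Ab (-0.22 percentage points), B (-6.52, adjusted permutation p = 0.0434) and no type (0.455), in *H. flavolineatum* minus *H. carbonarium* for Ab (-0.113) and no type (-0.268), and in *H. carbonarium* minus *H. macrostomum* for Ab (-0.107), B (-5.48) and no type (0.723). With at least 50 counts, Ab turned in *H. flavolineatum* minus *H. carbonarium* (-1.98). With isogroups without a type left out, B turned in *H. flavolineatum* minus *H. macrostomum* (-1.18) and *H. carbonarium* minus *H. macrostomum* (-0.0273). The cause was not tested. With a pseudocount of 0.1, isogroup13507 in the 11 other *H. flavolineatum* had r = 0.839 (adjusted permutation p = 0.0101), leaving 2 relations past 0.01 in place of 3. The median of the 6 high fish was 41991 CPM, 35614 in CPM of the total counts and 49108 with TMM factors of the tested isogroups.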
